A study of Linum usitatissimum with 4 samples.

Results

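The region described here is a pair of neighbouring flax genes on chromosome Lu14, Lus10002716.g and Lus10002717.g (below without the suffix), with the stretch of DNA between their starts. Its members are the cytosines that the authors listed as differing in methylation from an untreated control and that carry either gene's identifier. Cytosines of 1 further table, whose gene columns could not be used, were added where they lie on Lu14 between the first and the last of these positions. That gave 60 listings of 34 cytosines, out of 1894 listings of 1648 cytosines in all, and 46 of the 60 came by gene identifier and 14 by position. The choice rests on the same differences that are given below, so these are a description and carry no test.

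The study compared DNA methylation in shoot apices of Linum usitatissimum, cultivar JRF-2, by whole-genome bisulfite sequencing, in which unmethylated cytosines are converted and methylated ones stay. Its 4 groups were an untreated control kept at 22 ± 2 °C, seedlings heated to 40 ± 2 °C for 4 h on each of 5 days, seedlings from seeds soaked for 24 h in 1 mM 5-azacytidine and kept at 22 ± 2 °C, and seedlings given the soak and then the heat. A humidity of 70% is stated for the heated groups and none for the others. Seedlings were 21 days old, heated ones recovered at the control temperature for a time that the labels do not give, and each group is 1 library of apices pooled from 10 seedlings. With 1 library a group there is no replicate error for any value, the reads behind each site are unknown, and all 3 comparisons use the same control library. A shoot apex pool holds many cell types, so a change in methylation within cells and a change in the mix of cells cannot be told apart.

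Plants methylate cytosines in 3 sequence contexts, CG, CHG and CHH, where H is A, C or T. In Arabidopsis CG methylation is copied after replication by MET1, CHG methylation is kept by CMT3, and CHH methylation is set again by CMT2 and by DRM2, the latter guided by small RNAs. The drug 5-azacytidine is built into nucleic acids in place of cytidine, traps DNA methyltransferases and lowers methylation where cells go on dividing. Genes that lie head to head share the DNA between their starts, so a methylated site there is upstream of both.

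In 9 of its 10 entries in the tables used for gene names, Lus10002717 was described as a non-specific serine/threonine protein kinase, an enzyme class that adds phosphate to serine or threonine of other proteins. No family description was attached to Lus10002716 in any of its 36 entries, which instead carried 11 different texts, so the tables give it no stable role and it is called here by its identifier. The authors' distances imply a start at 8137012 for Lus10002716 and at 8138344 for Lus10002717. Positions above the first start and below the second are both given as upstream, so the genes lie head to head with their starts 1332 bp apart. Exons and introns of either gene were not used here, and the strand entries were not used because they differ between tables for 12 of the 14 cytosines listed more than once by gene identifier.

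The listings fell into a tight cluster about midway between the starts, with few sites around it. Of the 34 cytosines, 27 lay between the starts and 25 of these within 158 bp, from 8137541 to 8137699. The centre of this cluster lay 58 bp from the midpoint between the starts, on the side of Lus10002716. The other cytosines between the starts were the neighbouring pair at 8137087 and 8137093, and the 448 bp between them and the cluster held no listed cytosine. The next listed cytosines on Lu14 beyond the region were 862 kb below and 457 kb above it.

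**Figure D1:**
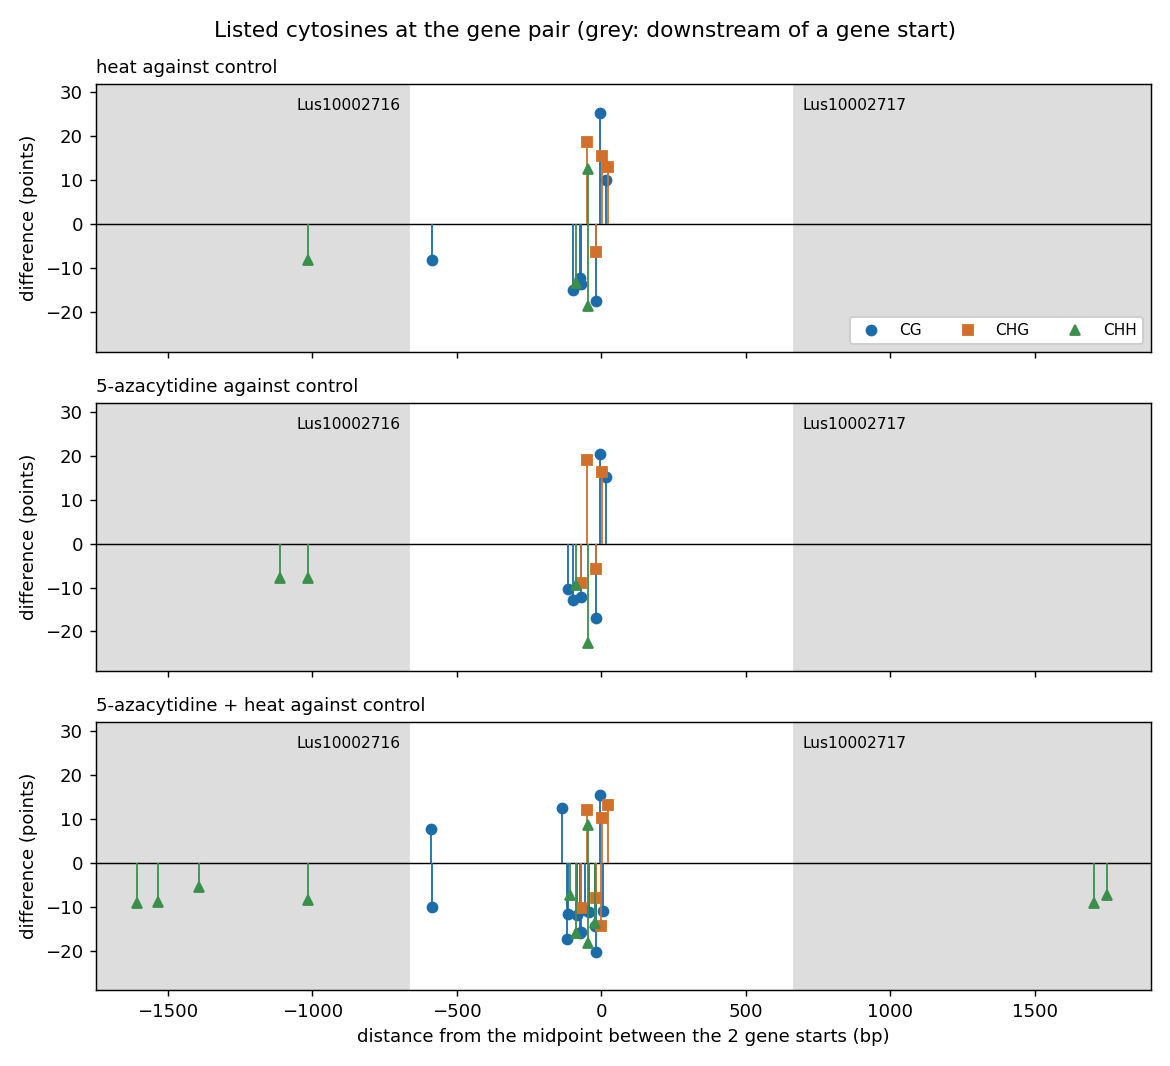
Difference in methylation from the control library, in percentage points, for each listed cytosine against its distance in bp from the midpoint between the gene starts, with 1 panel per comparison and symbols for the CG, CHG and CHH contexts. Grey marks positions downstream of a gene start; all 9 listings there are CHH sites below 0, while the cluster near the midpoint holds sites on both sides of 0.

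Position and context went together in these lists. All 27 CG and all 14 CHG listings lay between the starts, and of the 19 CHH listings 10 lay there and 9 downstream of a gene start. The 9 downstream listings were all lower than in the control library, as were 95.8% of all 1596 CHH listings of the series. Of the 51 listings between the starts, 41 of them CG or CHG, 34 were lower and 17 higher, and of the 10 CHH listings there 8 were lower. The zones thus differ in context, and their directions cannot be compared apart from it. Sites that the authors did not list were not analysed here, so a bare interval shows only that no cytosine in it passed their limits.

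In the heated seedlings the authors listed 15 cytosines of the region, 9 lower and 6 higher than in the control. That is 60.0% lower (exact binomial 95% interval 32.3 to 83.7), where 78.8% of all 184 heat listings were lower. The interval covers counting error over sites only, and sites so close together are not independent. By context, 5 of 7 CG sites were lower (60.4% of all CG listings), 1 of 4 CHG sites (46.2% of all) and 3 of 4 CHH sites (89.4% of all). The median of the authors' differences was -8.05 points over the region and -9.56 points over all heat listings. With differences of at least 10 points alone, 50% of 12 sites were lower and the median was -1.06 points, so the heat listings of the region then showed no prevailing direction.

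After the 5-azacytidine soak alone, 14 cytosines were listed, 10 lower and 4 higher. The share lower was 71.4% (41.9 to 91.6), against 90.8% of all 566 listings of that comparison. In the CG context 4 of 6 sites were lower (79.7% of all), in the CHG context 2 of 4 (80.9% of all) and in the CHH context 4 of 4 (93.4% of all). The median was -8.44 points in the region and -9.66 points over all listings. With a q-value below 0.001 the direction turned, though over few sites, with 42.9% of 7 sites lower and a median of 15.2 points. With differences of at least 10 points it did not turn, with 55.6% of 9 sites lower and a median of -10.4 points.

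With the soak followed by heat the region had 31 listed cytosines, 24 lower and 7 higher. This makes 77.4% lower (58.9 to 90.4), against 95.3% of all 1144 listings. Of 14 CG sites 11 were lower (78.2% of all), of 6 CHG sites 3 (68% of all) and of 11 CHH sites 10 (97.6% of all). The median was -10.1 points, against -9.35 points over all listings. In each of these comparisons the region's share of lower sites was thus below that of the whole list. However, the region has a larger part of CG and CHG sites than the lists. Its CG and CHH shares taken alone lay on either side of theirs. Its CHG share lay below theirs each time, over 4, 4 and 6 sites. The shares are a description, since the region was chosen from the lists.

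Seen from the whole series, the region held 17 of the 145 listings that were higher than control (11.7%) and 43 of the 1749 that were lower (2.46%). This gap mixes contexts, as 41 of the region's 60 listings are CG or CHG and most of the series is CHH. Among CG listings the region held 7 of 54 higher (13.0%) and 20 of 159 lower (12.6%), with no such gap, among CHG listings 8 of 24 higher (33.3%) and 6 of 61 lower (9.84%), and among CHH listings 2 of 67 higher (2.99%) and 17 of 1529 lower (1.11%). The 8 higher CHG listings came only from the cytosines at 8137629, 8137680 and 8137699, each listed repeatedly against the same control library. Its part of all listings was 8.15% for heat, 2.47% after the soak alone and 2.71% after soak and heat. The region lacked the largest differences of the lists. In the authors' deposited tables the absolute differences of the region ran from 5.54 to 25.2 points, and 0 of its listings reached 40 points. Among other listings, 11 of 169 for heat, 41 of 552 for 5-azacytidine and 65 of 1113 for both did. For the same comparisons the region's median absolute difference was 13.4, 12.5 and 11.2 points, above the 11.2, 10.2 and 9.64 points of other listings. These medians mix contexts as well. The region's smallest absolute difference lay close to the lower limit of the lists, which was 5.01 points. Its highest q-value, 0.0428 in the authors' deposited tables, lay close to the upper limit, 0.0499.

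Within the cluster, most higher sites lay next to the midpoint. In the 118 bp from 8137541 to 8137659, 7 of 9 heat listings, 8 of 9 listings for 5-azacytidine and 15 of 18 for 5-azacytidine plus heat were lower. These shares, 77.8%, 88.9% and 83.3%, were near or below the 78.8%, 90.8% and 95.3% of the whole lists. Those lists are mostly CHH sites, so the shares cannot be compared apart from context. In the whole lists 60.4%, 79.7% and 78.2% of CG listings were lower, and here all were, except that at 8137541 for both. The other higher listings here were at the CHG cytosine 8137629 and the CHH cytosine 8137632. In the 26 bp from 8137673 to 8137699, 4 of 4, 3 of 3 and 3 of 5 were higher. The bound was set at the cytosine with the highest difference, after the values were seen.

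**Figure D2:**
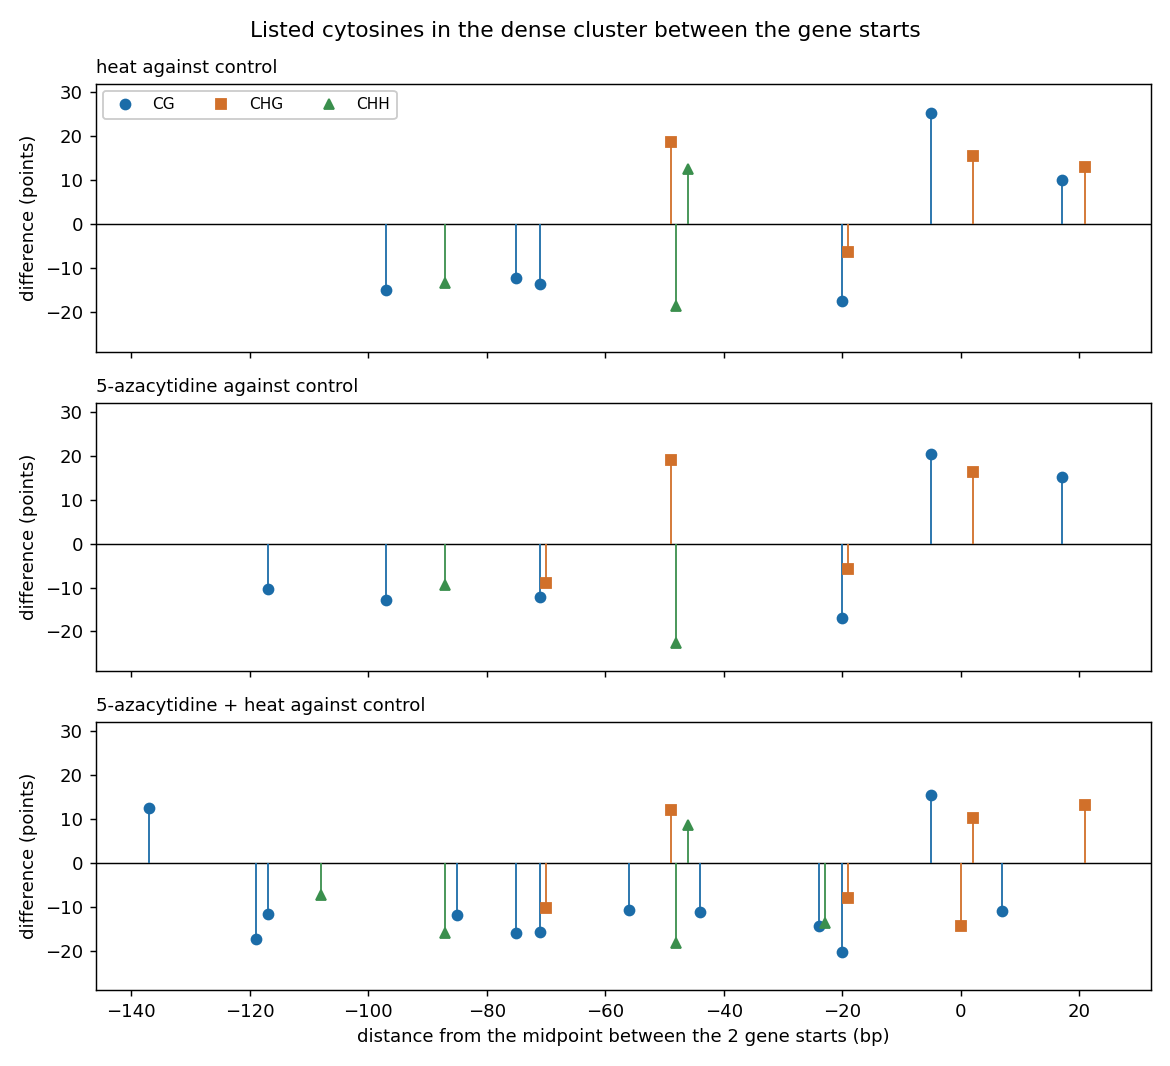
The dense cluster between the gene starts at higher resolution: difference from control in percentage points against the distance in bp from the midpoint between the starts, 1 panel per comparison, with symbols for the sequence context. Sites between -137 and -19 bp are mostly below 0 and those between -5 and 21 bp mostly above 0, with a sharp alternation near -48 bp.

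The highest site of the region was the CG cytosine at 8137673, 5 bp from the midpoint and 662 bp upstream of Lus10002716. The authors' deposited tables give it 25.2 points with heat (q = 2.71e-22), 20.3 points with 5-azacytidine (q = 1.73e-11) and 15.3 points with both (q = 6.14e-07). All 3 treated libraries were above the control here.

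Next to it, the CHG cytosine at 8137680, upstream of both genes and nearer to Lus10002717, was also higher in every treated library. Its differences in the authors' deposited tables were 15.5 points for heat, 16.2 points for 5-azacytidine and 10.1 points for both. The CG cytosine at 8137695 had 10.2 points for heat and 15.2 points for 5-azacytidine in the authors' deposited tables, and was not listed for both. At 8137699, a CHG cytosine 645 bp upstream of Lus10002717, the authors' deposited tables give 13.0 points for heat and 13.2 points for both. These 4 cytosines are the ones listed more than once on this side of the cluster. Another CHG cytosine, 2 bp before the one at 8137680, went the other way in the doubly treated library, with -14.5 points at 8137678 (q = 0.0428, authors' deposited table), and so did the CG cytosine at 8137685 with -10.9 points (authors' deposited table). Neither was listed for the single treatments. The pair at 8137678 and 8137680 is spaced as the cytosines on the opposite strands of 1 CHG would be, but strands could not be assigned.

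On the Lus10002716 side the lowest CG site was at 8137658, 647 bp upstream of that gene. It had -17.5 points for heat (q = 7.23e-17), -17.0 points for 5-azacytidine (q = 2.77e-15) and -20.4 points for both (q = 2.72e-23) in the authors' deposited tables, the last being the smallest q-value among all listings of the combined comparison. The cytosine 1 bp further, at 8137659 in the CHG context, was lower by less: -6.33, -5.85 and -8.13 points for heat, 5-azacytidine and both in the authors' deposited tables. Both cytosines thus went down in all 3 treated libraries, by unequal amounts.

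A sharp alternation of direction lay further towards Lus10002716. The CHG cytosine at 8137629 was higher, with 18.7 points for heat (q = 3.57e-22), 18.9 points for 5-azacytidine (q = 3.87e-22) and 12.1 points for both (q = 1.01e-07) in the authors' deposited tables. The next base, the CHH cytosine at 8137630, was lower, with -18.5 points (q = 4.75e-10), -22.7 points (q = 4.31e-19) and -18.3 points (q = 2.48e-09) for the same comparisons in the authors' deposited tables. It had the lowest difference of the region. After 2 bp more, the CHH cytosine at 8137632 was higher again, with 12.6 points for heat and 8.48 points for both in the authors' deposited tables. The CG cytosine at 8137634 was listed for the combined treatment alone, at -11.2 points (authors' deposited table). Within 5 bp, then, the direction changed from each listed cytosine to the next. Only the combined list holds all of these cytosines. The heat list lacks the one at 8137634, and the 5-azacytidine list also lacks the one at 8137632.

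Further from the midpoint the repeated sites were all lower. The CG cytosine at 8137607 had -13.6, -12.1 and -15.8 points for heat, 5-azacytidine and both in the authors' deposited tables. Its neighbour at 8137608, in the CHG context, had -9.07 points for 5-azacytidine and -10.2 points for both in the authors' deposited tables. The CHH cytosine at 8137591 had -13.4, -9.41 and -15.9 points in the 3 comparisons (authors' deposited tables). Of the CG sites listed in a pair of comparisons, the one at 8137603 had -12.3 points for heat and -15.9 points for both in the authors' deposited tables. At 8137581 the authors' deposited tables give -15.0 points for heat and -12.8 points for 5-azacytidine. The CG cytosine at 8137561, 550 bp upstream of Lus10002716, had -10.4 points for 5-azacytidine and -11.7 points for both (authors' deposited tables). No cytosine of this group was higher than control in any list.

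**Figure D3:**
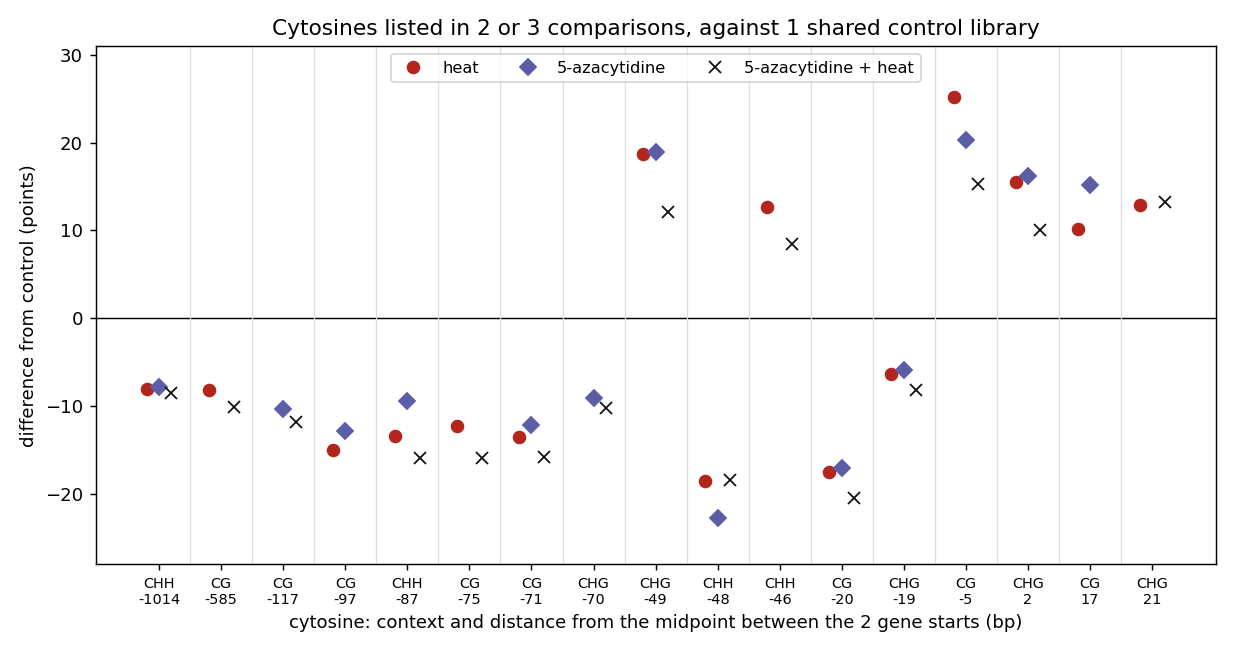
Difference from control in percentage points for the 17 cytosines listed in 2 or 3 comparisons, ordered by their distance in bp from the midpoint between the gene starts, with 1 symbol per comparison. The symbols of a cytosine lie on 1 side of 0 throughout, and all are measured against the same control library.

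Of the 34 cytosines, 9 were listed in all 3 comparisons, 8 in 2 and 17 in 1. Among the 17 were 16 listed for 5-azacytidine plus heat, 1 for 5-azacytidine and 0 for heat, and the combined comparison also has the longest lists overall. No cytosine had opposite signs in different comparisons. The comparisons share the control library, so their likeness is not independent evidence of an effect of any treatment. The difference between treatments at a site was not tested, because there is 1 library of each.

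The 16 cytosines listed only for the combined treatment were 8 in the CG, 1 in the CHG and 7 in the CHH context. The lowest was the CG cytosine at 8137559 with -17.3 points (q = 1.06e-06), and the highest the CG cytosine at 8137541, at the edge of the cluster, with 12.5 points (q = 0.0424), both from the authors' deposited table. Between them in size, the CG cytosines at 8137593, 8137622 and 8137654 had -12.0, -10.7 and -14.5 points in the authors' deposited table. Of CHH cytosines, the one at 8137655 had -13.7 points and the one at 8137570 had -7.42 points (authors' deposited table). Of all 16, 14 were lower and 2 higher, the second being the CG cytosine at 8137087 described next.

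Near the start of Lus10002716 a pair of CG cytosines stood apart from the cluster. The one at 8137093, 82 bp upstream of the start, was lower, with -8.11 points for heat and -10.1 points for both in the authors' deposited tables. The one 6 bp closer to the start, at 8137087, was higher, with 7.66 points for both (q = 8.25e-08, authors' deposited table). Adjacent sites again had opposite directions in 1 library.

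Downstream of the gene starts every listed cytosine was in the CHH context and lower, in a context where 95.8% of all listings were lower. Of the 5 such cytosines of Lus10002716, the one at 8136664, 348 bp past the start, was listed for every treatment, with -8.05, -7.80 and -8.53 points for heat, 5-azacytidine and both in the authors' deposited tables. The cytosine at 8136565 had -7.73 points for 5-azacytidine alone (authors' deposited table). For the combined treatment the authors' deposited table adds -9.11 points at 8136070, -8.97 points at 8136142 and -5.54 points at 8136286. Past the start of the kinase gene Lus10002717, 2 cytosines were listed, both for the combined treatment, with -9.07 points at 8139381 and -7.45 points at 8139428 in the authors' deposited table. These 9 downstream listings had a median of -8.05 points, near the -9.37 points of all CHH listings.

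The p-values of the region were small for the size of its differences. Among heat listings with an absolute difference of 10 to 20 points, the median of the authors' p-values was 9.55e-10 for the 11 of the region and 8.24e-07 for the 77 others. For 5-azacytidine these medians were 1.25e-14 over 7 and 2.71e-06 over 213 listings, and for both 1.02e-08 over 20 and 4.82e-06 over 367 listings. These medians mix contexts. Among CG listings alone they were 3.68e-09 and 1.49e-07 for heat, 4.54e-09 and 1.55e-06 for 5-azacytidine, and 3.70e-09 and 1.35e-06 for both. Among CHG listings the region's median was the smaller too, over only 3, 2 and 5 of its listings. Of the 10 smallest p-values of each comparison, 4, 4 and 2 belonged to the region. For a difference of a given size such a p-value becomes smaller as more reads cover the site, but the depth at these sites is unknown and its part in the lists was not tested.

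**Figure D4:**
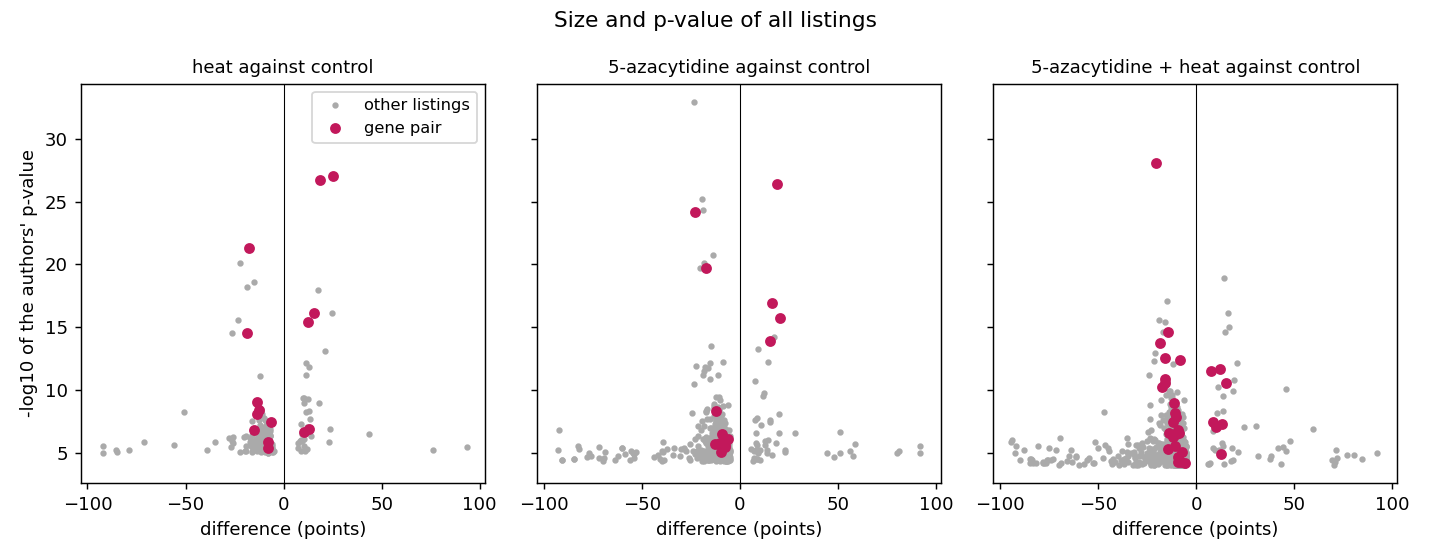
Authors' p-value of each listing, as -log10, against its difference from control in percentage points, with the gene pair in colour and all other listings in grey, 1 panel per comparison. The region's listings stay within 25.2 points of 0 on either side, and some of them reach the smallest p-values of the lists.

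Other protein kinase genes in the lists had mostly lower sites, in mostly CHH context. The 10 such genes found by words in the family descriptions had 6 heat listings (5 lower), 16 for 5-azacytidine (15 lower) and 34 for both (33 lower), near the shares of all listings, and 51 of the 56 were CHH sites. Lus10008540, which has the same description as Lus10002717, had 22 listings on Lu8, all lower, from -16.5 to -6.73 points in the authors' deposited tables and 2318 to 5279 bp downstream of its start. Lus10034637, described as protein kinase-related, had 11 listings 2171 to 2787 bp upstream, all lower, down to -15.4 points in the authors' deposited tables. Of 8 listings of Lus10041426, a protein kinase family gene, 7 were lower and 1 was higher at 23.9 points, in the heat list (authors' deposited tables). The cell division protein kinase gene Lus10002469 had 4 of 5 lower, with 8.80 points as the exception in the authors' deposited tables. Of the 10 listings that carry the identifier Lus10002717, 7 were higher, but these are 3 cytosines listed repeatedly against 1 control library, and 8 of the 10 were CG or CHG sites, where the other kinase genes had 5 such listings (3 lower). The difference was not tested, and the CG table of the combined treatment does not enter these gene counts.

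The 2 other genes with the most listings likewise had mostly lower sites, and these lay much further from the gene start. Lus10024540 on Lu13 had 71 listings, 63 lower, all between 10542 and 30868 bp upstream. Lus10006013 on Lu5 had 54 listings, 53 lower, all 14783 to 26747 bp downstream of its start. Lus10002716 had 36 listings by identifier, 29 lower, none further than 942 bp from its start. Genes here are the authors' nearest gene starts, and no expression was measured, so nothing is known of whether transcription of the pair changed.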

How the data were processed

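The authors deposited 9 tables, 1 for each of 3 treated libraries against the control in each of 3 contexts. Per the submitters' processing notes, Trimmomatic, FastQC, BWA, MethylDackel and methylKit were used; their versions and roles, and the genome build, are not given in the sources used here. Per the file headers, each row gives a position, a p-value and a q-value of the authors, their difference in methylation, gene identifiers and the distance to the nearest gene start. The difference is the authors' deposited score, in percentage points, and was read as treated minus control, the methylKit convention, which the files do not state; coded the other way, "higher" and "lower" would swap. Each row spans 1 bp, and positions are deposited starts, which may be off by 1 bp.

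Counts, medians and exact Clopper-Pearson intervals (95%) were computed with Python 3.11.15, pandas 2.3.3 and SciPy 1.17.1. Depth per library and site is unknown, and no test across samples was made, since each group is 1 library. Gene columns of the 5-azacytidine plus heat CG table were not used: its 7 rows naming the pair lie on Lu13, and all 7 repeat a gene and distance of the heat CG table. Its 14 rows in the region were taken by position. Gene starts were implied by distances counted from the far end of each 1 bp interval, and every row of a gene gave 1 start. The choice of members and counts was tested on simulated data. Named were cytosines listed in 2 or more tables, the 3 lowest, the 2 highest and the smallest q-value per table, the 2 other genes with the most listings and the 4 kinase genes with the most; further sites were named after their values were seen. Kinase genes were matched by words in family descriptions. Members and lists were chosen with earlier results of these data known. Genome sequence and gene models were not used here. Alternatives were stricter q-value and difference limits, joining cytosines at most 2 bp apart, and leaving out the rows taken by position.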

Additional observations from a re-analysis of the deposited data

How the results depend on the processing

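No paired analysis was possible because each group is 1 library and the results come from no test. With a q-value below 0.001 the region kept 7 listings for 5-azacytidine, all between the starts, and 16 for both treatments, also all between the starts. For 5-azacytidine that limit turned the direction: 42.9% of the 7 sites were lower and the median was 15.2 points. Rows taken by position decided the count for both treatments, which was 17 in all and 11 between the starts without them. A difference of at least 10 points left 9 listings for 5-azacytidine, 55.6% of them lower. The sites downstream of the gene starts rested on the authors' limits: with a q-value below 0.01 there were 0 for heat, 1 for 5-azacytidine and 2 for both, and 0 in each comparison with a q-value below 0.001 or a difference of at least 10 points. At other kinase genes 100% of sites were lower with a q-value below 0.001 (1 site for heat, 1 for 5-azacytidine, 2 for both), and 100% of 8 for 5-azacytidine with at least 10 points. For heat, a difference of at least 10 points left 50% of 12 sites lower and a median of -1.06 points, against 60.0% and -8.05 points. That median lies within the exact order-statistic interval of the heat median, which is wide (-13.4 to 12.6 points). The intervals were -12.1 to 15.2 points for 5-azacytidine and -11.7 to -8.13 points for both. They cover counting error over sites only. The sites are not independent and were chosen from the lists, so the intervals are no test against 0 or between treatments. Among the main results, 73 values lay within 1.5 times the count or within the interval of the share or median, the heat median included. Another 20 moved beyond these limits. The direction reversed in 3, all for 5-azacytidine with a q-value below 0.001. Some of the 73 could not move, since the rows taken by position all belong to the combined treatment. Leaving them out could change no value for heat or 5-azacytidine. The intervals of the shares were also wide, so the 73 are no measure of stability. Missing depth limits every value.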

Other observations

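Over all listings of the series, a window of 158 bp held at most 25 different listed cytosines, and that window is the cluster between Lus10002716 and Lus10002717. The next densest windows held 12 cytosines on Lu15, 88 to 241 bp downstream of the start of Lus10007146, and 12 on Lu2, with every listing of both windows lower than control. A window on Lu3, 3115 to 3234 bp upstream of Lus10007390, described as related to bifunctional nuclease 1, held 9 cytosines with 16 listings, 8 lower and 8 higher. The window length of 158 bp is the span of the cluster itself, so its first rank is no independent finding. These windows were found by their counts, so the counts are a description.

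Listed cytosines at most 2 bp apart in 1 comparison formed 15 neighbouring pairs in the region, and 7 of these had opposite directions. Of these 7, all but the pair at 8137678 and 8137680 lay between 8137629 and 8137634. Among all other listings 40 such pairs occurred, 6 of them with opposite directions. The other listings are mostly CHH and 93.0% of them were lower, against 71.7% in the region, so the counts of opposite pairs are not alike in make-up. Several pairs share a cytosine or recur in different comparisons against the 1 control library, so they are not independent, and no test was made.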
